A study of Mus musculus with 12 samples.

Results

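Open chromatin around 4 glial genes, Olig1, Olig2, Sox10 and Gfap, was followed in peak lists from projection neurons of the mouse neocortex. The members were the peaks of every list that overlapped 3 intervals on mm9: chr16:91200000-91310000 for the neighbouring genes Olig1 and Olig2, chr15:78950000-79040000 for Sox10 and chr11:102735000-102775000 for Gfap. The 12 lists placed 222 peaks there. Merging overlapping or touching peaks of all lists gave 73 regions in the intervals, 30, 34 and 9 in the order above, of 498516 in the genome. A list counts as open in a region if any of its peaks covers 1 bp or more there.

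ATAC-seq, in which a transposase cuts accessible DNA and leaves sequencing adapters there, was applied to GFP-positive neurons sorted from mice of the CD1 strain. The Golli-GFP transgene, whose promoter belongs to the myelin basic protein gene, marked deep-layer neurons, collected on E13.5 or E16.5 or E18.5. For the upper layers, Cdk5r promoter-GFP was electroporated in utero on E15.5, and the cells were collected on E17.5, on P1 or on P5. There were thus 6 groups of 2 lists, and a list came from 2 to 8 pooled embryos. All groups were sorted on a reporter, and none was an untreated or glial control. Separate litters are not stated for the replicates, so p-values reflect the spread of these particular lists, part of which may be technical. P1 and P5, the postnatal groups, were both upper-layer, so population and side of birth overlap in this design.

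Olig1 and Olig2 are basic helix-loop-helix transcription factors; Olig2 specifies oligodendrocyte precursors and motor neurons and is also made by ventral forebrain progenitors. Sox10, an HMG-box factor, acts after Olig2 to drive oligodendrocyte differentiation and also marks neural crest cells. Gfap encodes the intermediate filament protein of astrocytes. Projection neurons are not known for making these proteins, while cortical progenitors turn to making glia around birth.

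The lists held 96452 to 164508 peaks, which stand here for depth since no read totals or peak scores were given. Values per list are therefore given as peaks in an interval per 100000 peaks listed. Both upper-layer E17.5 lists carried the same library name in their peak names and shared 66.0% of the regions open in either, against 23.9% to 54.9% in the other replicate pairs. Interval comparisons and the test of regions were therefore repeated with 1 or both left out; descriptions of E17.5 itself, such as its peak widths, rest on these lists. Replicates at P1 and P5 shared only 24.9% and 23.9%, so single-list regions were common there. In sorted cells, a locus open in more cells and a locus more open per cell cannot be told apart. The cell type of each library could not be checked against marker genes, because no mm9 annotation was used, and the glial share of the sorted cells was not tested.

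The deposited files hold no sequence, and RefSeq (GRCm38.p6, the build of the promoter table) held promoters for 2 of the 4 genes, Olig2 and Gfap. Their 250 bases before the start are shown because they differ in CpG content, which is capitalised, and CpG-rich promoters are often open in many cell types.
Olig2: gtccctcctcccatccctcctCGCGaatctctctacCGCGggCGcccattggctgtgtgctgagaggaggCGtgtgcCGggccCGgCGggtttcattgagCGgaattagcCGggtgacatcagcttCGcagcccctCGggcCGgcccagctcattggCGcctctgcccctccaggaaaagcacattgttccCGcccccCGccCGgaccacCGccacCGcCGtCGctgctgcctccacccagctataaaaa
Gfap: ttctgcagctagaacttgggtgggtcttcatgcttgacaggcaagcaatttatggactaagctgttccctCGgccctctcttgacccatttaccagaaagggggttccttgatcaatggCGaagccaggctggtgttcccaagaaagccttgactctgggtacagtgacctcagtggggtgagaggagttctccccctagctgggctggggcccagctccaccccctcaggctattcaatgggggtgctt
The Olig2 stretch held 22 CpG pairs and was 66.8% G or C. The Gfap stretch held 2 CpG pairs and was 55.6% G or C. Over 32851 promoters of the table the median was 6 CpG pairs, and 14.8% held at least 22. These stretches were not placed on the peaks, whose build differs, so which peak covers which promoter was not determined. For the same reason no peak is assigned to one gene: in the RefSeq gene order the intervals' genes have Ifnar2 (next to Olig1), Polr2f and Pick1 (on either side of Sox10) and Fam187a and Kif18b (on either side of Gfap) as neighbours.

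**Figure D1:**
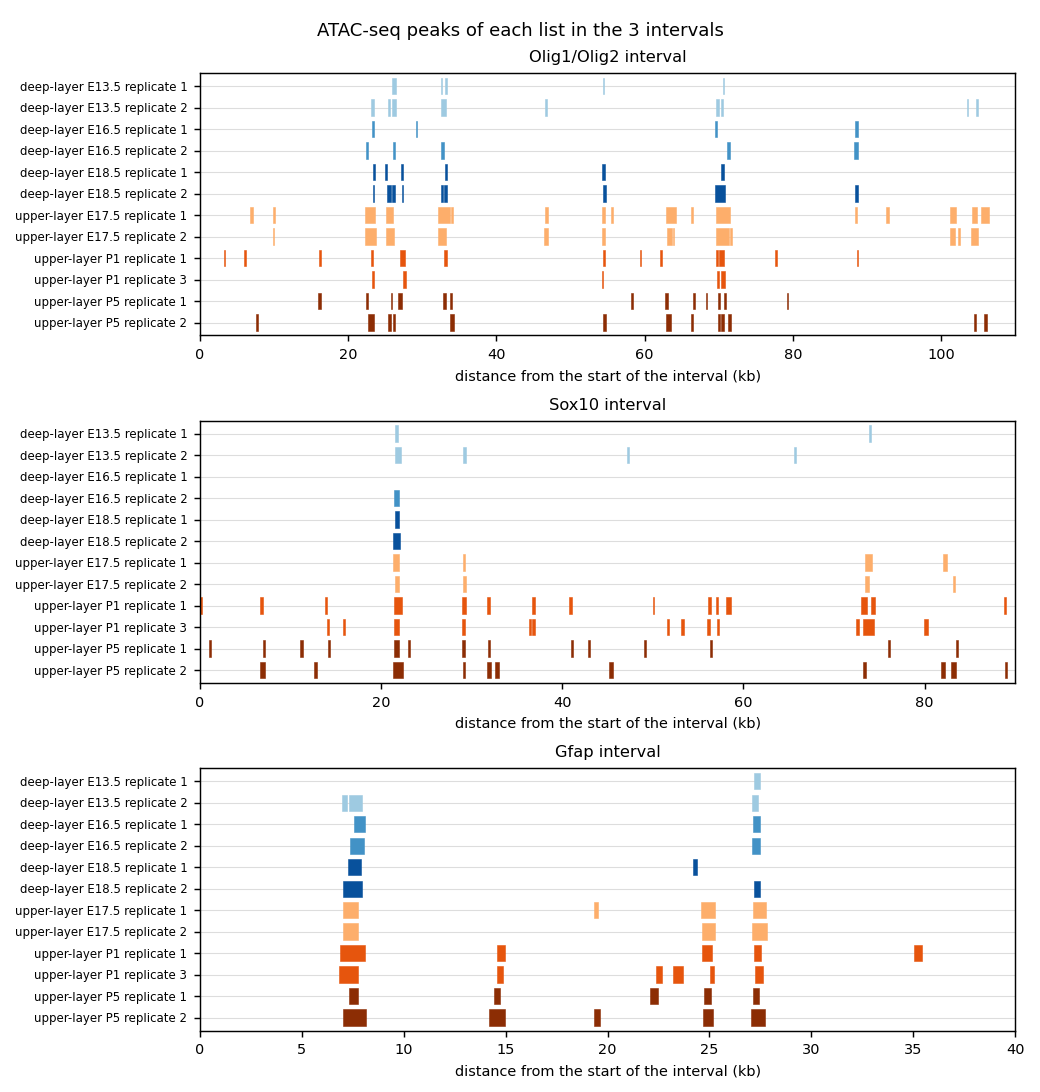
Peaks of the 12 lists (rows, coloured by group) in the 3 intervals, by distance in kb from the start of each interval; each box spans a peak. The Sox10 interval holds 0 to 4 peaks in each prenatal list and 11 to 15 in each postnatal list.

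The Sox10 interval held few peaks before birth and many after it. Deep-layer lists held 2 and 4 peaks at E13.5, 0 and 1 at E16.5, and 1 and 1 at E18.5 in these 90 kb. Upper-layer lists held 4 and 4 peaks at E17.5, 15 and 13 at P1, and 14 and 11 at P5. Prenatal and postnatal lists did not overlap. Of the windows of 90 kb in the same list, 0% to 47.0% had fewer peaks than this interval in prenatal lists and 93.5% to 97.6% in postnatal lists. The density was thus ordinary in E17.5 replicate 2, where the interval equalled the median window.

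Per 100000 peaks listed, the Sox10 interval had 11.2 ± 1.26 postnatal (SD, n = 4) and 1.58 ± 1.09 prenatal (SD, n = 8), a ratio of 7.07. The difference of 9.61 passed the test over all windows of the same length (adjusted p = 0.0111, exact permutation test, two-sided, Benjamini-Hochberg). Of 29364 windows, 17.9% were called in this direction, 9.26% had groups that did not overlap in this direction, and 0.759% had a difference at least as large. The call is therefore a common one, while the size of the difference is not. Among upper-layer lists alone, where the smallest possible p is 0.0667, the difference was 8.35 (exact permutation p = 0.0667). Over all lists it was 9.73 with E17.5 replicate 1 left out and 9.85 with replicate 2 left out.

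The windows around the Sox10 interval were also higher after birth, but by less. In the 3 windows of 90 kb on each side, postnatal lists averaged 9.53 to 11.1 peaks per 100000 listed, close to the 11.2 of the interval itself. Prenatal lists averaged 3.15 to 6.24 in those windows, above the 1.58 of the interval. The ratio was 1.79 to 3.20 in the 6 neighbours. These windows were chosen after the data had been seen, and the contrast between interval and neighbours was not tested.

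**Figure D2:**
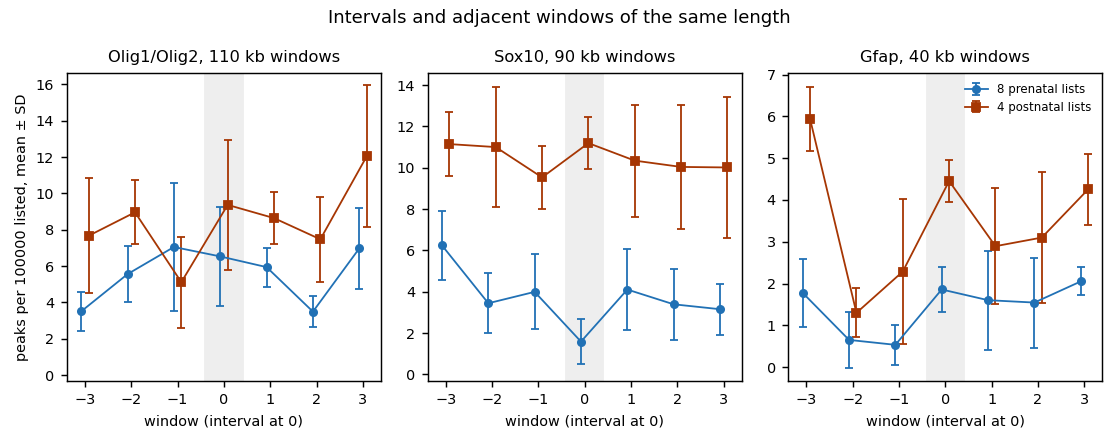
Mean peaks per 100000 listed (vertical axis, bars are SD over lists) in each interval (0, shaded) and in 3 windows of the same length on either side, for 8 prenatal and 4 postnatal lists. At Sox10 the postnatal means are level across windows (9.53 to 11.2), and the prenatal mean is lowest in the interval (1.58).

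Most Sox10 regions were seen after birth alone and in few lists. Of the 34 regions, 27 (79.4%) were open in postnatal lists only, against 40.7% of all regions in the genome. Among the same 34, 21 (61.8%) were open in a single list, against 53.2% in the genome, and 8 were open in at least 2 postnatal lists and in no prenatal list (23.5%, against 7.54%). None was open in all 4 postnatal and no prenatal list, a pattern of 0.549% of all regions. The 3 regions nearest to that, each open in 3 postnatal lists and no prenatal list, were chr15:78956612-78957186, chr15:78981673-78982106 and chr15:79005933-79006552. Each had p = 0.0182 and an adjusted p of 0.0626 (Fisher's exact test over 113942 regions), so none passed. Among postnatal lists the first 2 were closed only in P1 replicate 3 and the third only in P5 replicate 2. With that list left out each split was complete, so each passed (adjusted p = 0.0326 and 0.0324, Fisher's exact test). In those settings 4491 of 85557 and 5322 of 85575 regions of the genome passed in this direction. The list left out is the one that broke the split, so this passing adds no support. With all lists kept, 10.7% of the regions tested reached p under 0.05 in this direction before adjustment.

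A small number of Sox10 regions recurred. The region chr15:78971257-78972406, 21.8 kb into the interval, was open in 11 lists, all but deep-layer E16.5 replicate 1. Its peak widths were 329 to 831 bp in the 5 open deep-layer lists, 684 and 499 bp at E17.5, and 549 to 1150 bp at P1 and P5. Widths of the populations overlapped there. At E16.5 and E18.5 it was the only region of the Sox10 interval open in deep-layer neurons. The region chr15:78978910-78979361 was open throughout the 6 upper-layer lists but, of 6 deep-layer lists, only in E13.5 replicate 2. That split had p = 0.0152 and an adjusted p of 0.109 (Fisher's exact test over 42767 regions), which did not pass. The region chr15:79022975-79024505 was open in 5 upper-layer lists and 1 deep-layer list, with its widest peak, 1224 bp, at P1 replicate 3. The region chr15:79031764-79032484 was open in 1 E17.5 list and 1 P5 list, with peaks of 427 and 508 bp.

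**Figure D3:**
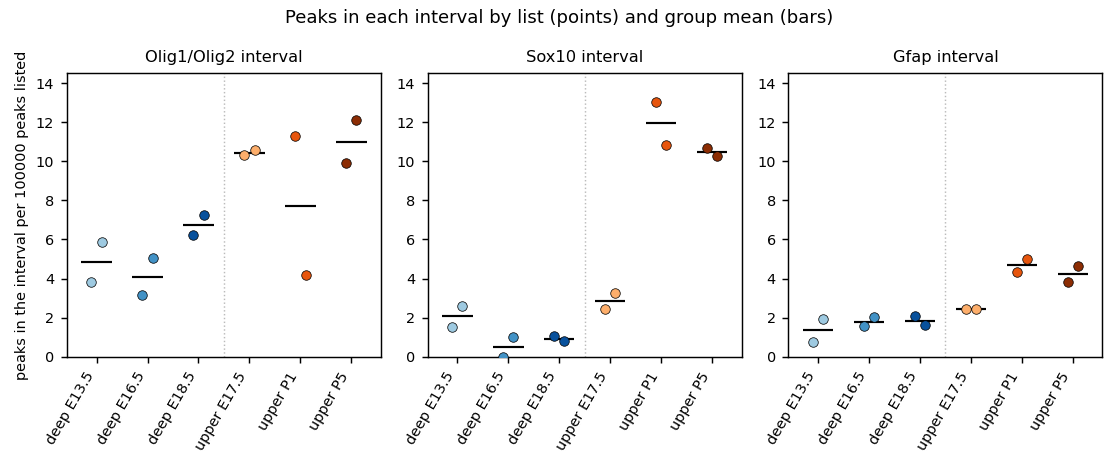
Peaks in each interval per 100000 peaks listed (vertical axis) for every list (points), with the mean of each group of 2 (bars); the dotted line parts deep-layer from upper-layer groups. The P1 and P5 lists lie above all others at Sox10 and Gfap, and the E17.5 lists lie with P5 at Olig1/Olig2.

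The Gfap interval, 40 kb long, also held more peaks after birth. Deep-layer lists held 1 and 3 peaks at E13.5 and 2 in each list at E16.5 and E18.5. Upper-layer lists held 4 and 3 at E17.5, 5 and 6 at P1, and 5 and 5 at P5. Neither the populations nor the sides of birth overlapped once scaled to list length.

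Per 100000 peaks listed, the Gfap interval had 4.45 ± 0.504 postnatal (SD, n = 4) and 1.86 ± 0.543 prenatal (SD, n = 8), a ratio of 2.40. The difference of 2.59 passed (adjusted p = 0.0177, exact permutation test over 66053 windows of 40 kb). In these windows 10.4% were called in this direction, 6.04% had groups that did not overlap, and 4.82% had a difference at least as large. With lists permuted within their replicate number the adjusted p was 0.0740 (exact permutation). In that setting 0 of 66053 windows passed, so the loss was not particular to this interval. The difference was 2.68 with either E17.5 list left out. Among upper-layer lists alone the difference was 2.02 (exact permutation p = 0.0667, the smallest possible). The neighbours of the Gfap interval also had higher postnatal means in all 6 windows, by ratios of 1.81 to 4.28.

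A single region of the 3 intervals passed the test of regions, and it lay in the Gfap interval. The region chr11:102749193-102749969 was open in all 4 postnatal lists and in none of the 8 prenatal lists (p = 0.00202, adjusted p = 0.0197, Fisher's exact test). In the genome, 2737 regions, or 2.4% of those tested, were called in this direction. Within upper-layer neurons it was closed in both E17.5 lists. Its median peak width was 365 bp, and it no longer passed when being open required a covered share of 0.5. It also did not pass when p-values were adjusted over all 498516 regions, or when lists were permuted within replicate number. No region of the genome passed under either of the latter settings, so the loss there was not particular to this region.

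Another Gfap region separated the populations. The region chr11:102759605-102760275 was open in all 6 upper-layer lists, E17.5 included, and closed in the whole deep-layer set, a pattern held by 117 regions in the genome (0.0235%). Its peaks were 671 and 611 bp wide at E17.5, 496 and 212 bp at P1, and 365 and 477 bp at P5. The split had p = 0.00216, the smallest that 6 lists against 6 allow, and an adjusted p of 0.0501 (Fisher's exact test), so it did not pass. With both E17.5 lists left out it spanned chr11:102759629-102760238, was open in 4 of 4 upper-layer and 0 of 6 deep-layer lists, and passed (adjusted p = 0.0319, Fisher's exact test over 99551 regions). With these lists left out, 2970 regions of the genome passed in this direction. The upper-layer lists are then all postnatal, so population and birth cannot be told apart in that setting. A complete split also stays complete when lists are left out, so this passing adds no support for a population difference. No region of any interval was open in 2 or more deep-layer lists while closed in the upper layers, a pattern of 6.81% of all regions. By Fisher's exact test with adjustment, 0 of 42767 regions (0%) differed between populations. With the same number of widest peaks kept in each list, 86 and 2130 of 33474 passed for upper-layer and deep-layer lists, none of them in the 3 intervals, so the genome's count depends on this setting. Before adjustment, 701 (1.64%) favoured upper-layer and 5262 (12.3%) deep-layer lists at p under 0.05.

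Of the other Gfap regions, 4 were open in at least 2 lists. The region chr11:102741798-102743145 was open in 11 lists, all but deep-layer E13.5 replicate 1, and its widest peak measured 1259 bp at P1 replicate 1. The region chr11:102762060-102762800 was also open in 11 lists, all but deep-layer E18.5 replicate 1, with peaks of 273 to 416 bp in deep-layer lists and 287 to 720 bp in upper-layer lists. The region chr11:102757102-102757650 was open in 2 postnatal lists alone, with peaks of 275 bp at P1 replicate 3 and 360 bp at P5 replicate 1. The region chr11:102754319-102754610, chosen after its values were seen, was open in 1 E17.5 and 1 P5 list, with peaks of 214 and 292 bp. Open lists were too few in both for a test over the genome.

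At Olig1 and Olig2 the pattern was another: the interval was open in every list and was richest in upper-layer neurons from E17.5 on. Deep-layer lists held 5 and 9 peaks at E13.5, 4 and 5 at E16.5, and 6 and 9 at E18.5 in these 110 kb. Upper-layer lists held 17 and 13 peaks at E17.5, 13 and 5 at P1, and 13 and 13 at P5. P1 replicate 3 was the single upper-layer list within the deep-layer range.

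Per 100000 peaks listed, the Olig1/Olig2 interval had 9.73 ± 2.84 in upper-layer lists (SD, n = 6) and 5.23 ± 1.53 in deep-layer lists (SD, n = 6), a ratio of 1.86. The difference of 4.50 had p = 0.0108 and an adjusted p of 0.0935 (exact permutation test over 24026 windows of 110 kb), so it did not pass. No window of that length (0%) passed for population in either direction by this test, but that count moved with the setting, to 2358 on covered base pairs, 2212 with E17.5 replicate 1 left out and 1188 with replicate 2 left out. Without adjustment 11.9% of windows had p under 0.05 with more upper-layer peaks, and 4.6% had a difference at least as large. Leaving out E17.5 replicate 1 gave a difference of 4.38, and leaving out replicate 2 gave 4.33. Leaving out both, which makes population and birth 1 comparison, gave 4.14 (exact permutation p = 0.0381, adjusted p = 0.0850, 7880 windows passing). Without P1 replicate 3 it was 5.61 (exact permutation p = 0.00216, adjusted p = 0.0549). Among prenatal lists alone, E17.5 exceeded deep-layer lists by 5.21 (exact permutation p = 0.0357, the smallest possible, adjusted p = 0.333). Side of birth gave a difference of 2.84 (exact permutation p = 0.154, adjusted p = 0.237; 19.5% of windows were called in this direction). It was 4.57 with P1 replicate 3 left out (exact permutation p = 0.0364, adjusted p = 0.0805) and -1.07 among upper-layer lists alone.

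The population contrast at the other intervals had the same sign and did not pass either. The Sox10 interval had 8.41 ± 4.43 peaks per 100000 listed in upper-layer and 1.16 ± 0.863 in deep-layer lists (SD, n = 6 each; p = 0.00433, adjusted p = 0.0715, exact permutation). For Gfap the values were 3.78 ± 1.11 and 1.67 ± 0.486 (SD, n = 6 each; p = 0.00216, adjusted p = 0.0813, exact permutation). Again 0% of windows passed, against 2724 at 90 kb and 3183 at 40 kb on covered base pairs, and windows with an unadjusted p under 0.05 and more upper-layer peaks made up 11.2% at 90 kb and 7.73% at 40 kb. A difference at least as large was found in 0.572% of windows at 90 kb and 3.53% at 40 kb, and at 40 kb 1.07% had populations that did not overlap in this direction. At Sox10 the difference of 7.24 became 8.44 with E17.5 replicate 1 left out, which passed (adjusted p = 0.0432, exact permutation) as 1472 windows then did. It was 8.28 with replicate 2 left out, which did not pass (adjusted p = 0.0595, exact permutation), while 1300 windows did. At Gfap the difference of 2.11 became 2.38 with either left out. Without both E17.5 lists the upper-layer lists are the 4 postnatal ones, so population and birth become 1 comparison. It then passed at Sox10 (10.03, adjusted p = 0.0245) and at Gfap (2.79, adjusted p = 0.0377, exact permutation), as did 8949 windows of 90 kb and 8347 of 40 kb. Before birth the excess of E17.5 over deep-layer lists was 1.67 at Sox10 and 0.766 at Gfap (exact permutation p = 0.0714 and 0.107).

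At E17.5 the Olig1/Olig2 interval held more peaks than in any deep-layer list, and peaks covered more of its length than in any other list. Per 100000 listed, E17.5 averaged 10.4 peaks and P5 11.0, so E17.5 was not the richest stage on that scale. The median peak width at E17.5 was 459 and 628 bp in the interval, and 489 and 481 bp over the whole lists. The interval was covered by peaks over 11.6% and 8.39% of its length in the E17.5 lists, against 1.01% to 3.79% in deep-layer lists and 1.62% to 5.27% at P1 and P5. Over the genome the E17.5 lists covered 100.4 and 74.7 Mb, deep-layer lists 48.0 to 75.2 Mb and postnatal lists 45.3 to 52.6 Mb, so E17.5 replicate 1 covered the most DNA and deep-layer E18.5 replicate 2 slightly more than E17.5 replicate 2. Per 1000000 bp covered in the list, the interval took 127 and 124 bp at E17.5, 89.4 and 37.6 bp at P1, and 74.6 and 123 bp at P5. Deep-layer means (SD, n = 2 per stage) were lower, with 43.5 ± 16.9 bp at E18.5, 32.1 ± 13.5 bp at E13.5 and 27.7 ± 13.7 bp at E16.5. On that scale P5 replicate 2 came within 1 bp of the lower E17.5 list.

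The only region of the 3 intervals open in all 12 lists was chr16:91269460-91271768, 70.6 kb into the Olig1/Olig2 interval. Of all regions in the genome 3.42% were open in 12 lists. Its peaks were 1814 and 1672 bp wide at E17.5, 686 and 621 bp at P1, and 316 and 466 bp at P5. In deep-layer neurons they were 237 and 397 bp at E13.5, 231 and 450 bp at E16.5, and 353 and 1407 bp at E18.5. Both E17.5 peaks were the widest of the 12, and E18.5 replicate 2 stood apart from its replicate.

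All 4 regions of this interval that were open in 9 or more lists were widest in both E17.5 lists. Besides the region above these were chr16:91222243-91223688 (1354 and 1383 bp at E17.5, at most 821 bp elsewhere), chr16:91225026-91226408 (916 and 1016 bp, at most 536 bp elsewhere) and chr16:91232120-91234286 (1594 and 1057 bp, at most 627 bp elsewhere). In the genome, 18.8% of 38219 regions open in 9 or more lists showed this order, and none of the 3 such regions at Sox10 and Gfap did. Peaks in such regions were wide at E17.5 over the whole genome, with medians of 904 and 825 bp. Deep-layer E18.5 replicate 2 had 863 bp there, and the remaining lists 506 to 675 bp. No test was made of this order, which was noticed in the data, since the E17.5 lists may not be independent.

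**Figure D4:**
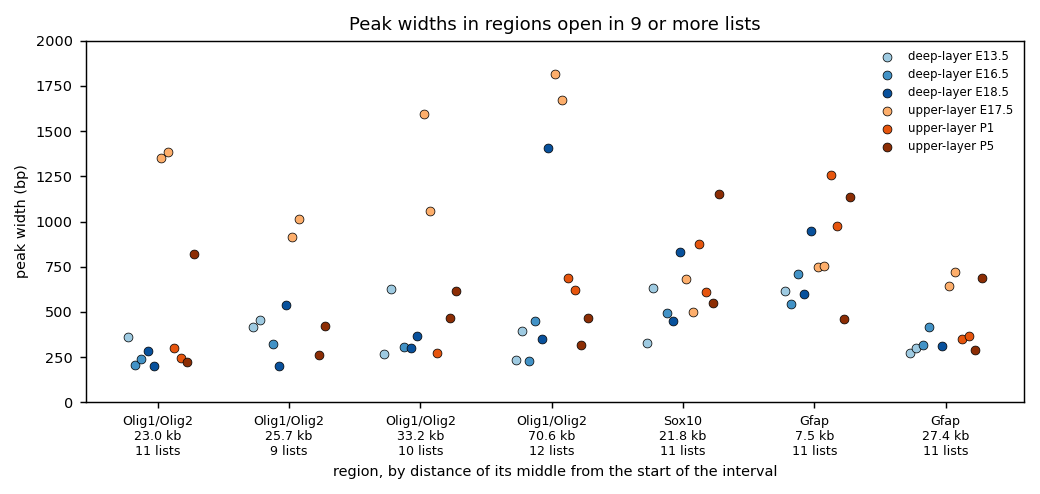
Width in bp (vertical axis) of each list's peak (points, coloured by group) in the 7 regions open in 9 or more lists, ordered by interval and position. In the 4 Olig1/Olig2 regions both E17.5 points lie above all others, and at Sox10 and Gfap they do not.

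Of the 30 Olig1/Olig2 regions, 19 (63.3%) were open in upper-layer lists only, near the 50.1% of the genome, and 2 (6.67%) in deep-layer lists only, where the genome had 21.4%. These shares were not tested. The region chr16:91262815-91264209 was open in both E17.5 and both P5 lists and in no P1 or deep-layer list, with a median peak width of 653.5 bp (p = 0.0606, Fisher's exact test, too few open lists to be tested over the genome). The region chr16:91301147-91302000 was open in both E17.5 lists alone, with a median width of 780.5 bp, and 2.63% of all regions shared that pattern. Near it, chr16:91304051-91304964 was open at both E17.5 lists, deep-layer E13.5 replicate 2 and P5 replicate 2. The nearby region chr16:91305405-91306438 was open in 1 E17.5 list and 1 P5 list. The region chr16:91246466-91246992 was open at E17.5 and in deep-layer E13.5 replicate 2. A region chosen after its values were seen, chr16:91254246-91254849, was open in 8 lists, with peaks of 200 to 497 bp.

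Of the 73 regions, 54 (74.0%, genome 50.1%) were open in upper-layer lists only and could not change between deep-layer stages. Fewer regions changed between the deep-layer stages than from E17.5 to P1 or P5 in upper-layer neurons, and the genome had that order too. Between E13.5 and E18.5 in deep-layer neurons no region of the 3 intervals went from open in both lists to closed in both, against 5.65% of all regions, and 1 of 73 did the opposite (genome 2.8%). That region was chr16:91226761-91227734 at Olig1/Olig2. In upper-layer neurons, from E17.5 to P1, 6 of 73 regions closed (8.22%, genome 13.3%), all at Olig1/Olig2. Over the same step 5 opened (6.85%, genome 3.42%), 3 of them at Sox10 and 1 in each other interval. From P1 to P5, 2 closed (2.74%), both at Sox10, and 4 opened (5.48%), 3 of them at Olig1/Olig2, where the genome had 1.6% for each. Some regions count in both steps. At Olig1/Olig2, chr16:91225026-91226408 and chr16:91262815-91264209 were open in both E17.5 and both P5 lists but in no P1 list. At Sox10, chr15:78986614-78987015 and chr15:79007003-79007335 were open in both P1 lists alone. From E17.5 straight to P5, 3 closed (4.11%, genome 13.3%), all at Olig1/Olig2, and 3 opened (4.11%, genome 2.97%), 2 at Sox10 and 1 at Gfap. With 2 lists a stage no test per region was made.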

How the data were processed

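The data were ATAC-seq peaks, of which the authors deposited 1 list per sample (12 in all) with chromosome, start, end and name of each peak, and no score. The submitters' processing notes name mm9 as build and, as tools, MACS2 2.1.0, Picard 1.14.0, Bowtie2 and cutadapt; for peak thresholds, read totals and any transposase shift, the sources used here give nothing. Members, lists and comparisons were chosen with earlier results of these data known.

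Peaks in an interval were divided by the peaks in the list, per 100000. Group differences were tested by exact permutation of list labels (924 splits for population, 495 for birth), two-sided, adjusted by Benjamini-Hochberg over all non-overlapping windows of the interval's length plus the interval. Consensus regions were tested by Fisher's exact test on open and closed lists, adjusted over all regions whose number of open lists allows p under 0.05. Named were, per interval, regions open in all 12 lists, regions that separate populations or sides of birth, and the 5 with the largest median peak width among those open in at least 2 lists; other regions were chosen after their values were seen. Both tests were also run on simulated data in which replicate lists had no dependence on each other. Their behaviour on dependent lists was not tested. Number of peaks limits precision: a weak region may go unlisted. Alternatives were other scalings, the widest 96452 peaks of each list, stricter overlap, 500 bp windows, permutation within replicate number and each list left out. Added after seeing the data were upper-layer or prenatal lists alone, both E17.5 lists left out, the neighbouring windows and the width comparison. Other glial genes, which had been planned given an mm9 annotation, are not analysed here. Python 3.11.15, numpy 2.4.6, pandas 2.3.3, scipy 1.17.1 and matplotlib 3.10.9 were used.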

Additional observations from a re-analysis of the deposited data

Results flagged for a closer look

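Upper-layer P1 replicate 3 lay far below the other 5 upper-layer lists at Olig1/Olig2, with 4.16 peaks per 100000 listed; its gap to the next list was 0.721 of the range. Dixon's test calls about 1 in 20 groups by chance, and 12 sets of lists were examined here. The same list was not low at Sox10 (10.8) or Gfap (4.99).

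From the first to the last stage, the mean at the Sox10 interval rose in upper-layer lists and fell by little in deep-layer lists. Upper-layer lists rose by 7.62 peaks per 100000 listed from E17.5 to P5, while deep-layer lists went from E13.5 to E18.5 by -1.15. The deep-layer change rests on few peaks, 2 and 4 at E13.5 and 1 in each list at E18.5. Of the 4 regions open in E13.5 replicate 2, 2 were open in no other list. The difference between populations was not tested. The stages differ in age, and no deep-layer list was postnatal.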

How the results depend on the processing

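Upper-layer lists alone, which hold 2 and 4 lists and cannot give p below 0.0667, changed the comparison across birth to -1.07 at Olig1/Olig2, where it turned round, and to 8.35 at Sox10 and 2.02 at Gfap, where it no longer passed. Same-numbered lists showed no shared deviation at the median (r -0.0276 over 110 kb windows). Of 25 pairs of lists 7 correlated above 0.1, the highest at 0.256, so these values cannot settle whether numbers pair the lists. With the replicate block, the postnatal excess of 2.59 at Gfap had an adjusted p of 0.0740 and the 9.61 at Sox10 one of 0.0482 (exact permutation). In that setting 0 of 66053 windows of 40 kb passed, and 8126 of 29364 windows of 90 kb. P1 replicate 3, the only list of its number, kept its label in every split. The population difference at Sox10 passed on covered base pairs (65.8 bp per 1000000, adjusted p = 0.0467) and without upper-layer E17.5 replicate 1 (adjusted p = 0.0432, exact permutation). Without both E17.5 lists, a setting added after seeing the data, population and birth are 1 comparison. Its difference passed at Sox10 (10.03) and Gfap (2.79). In it 2 regions passed, at Gfap, more often open in the upper-layer lists, all postnatal there.

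With each list left out, the population difference was 4.02 to 5.61 at Olig1/Olig2, 6.32 to 8.44 at Sox10 and 1.87 to 2.38 at Gfap. The difference across birth was 1.92 to 4.57 (the highest without P1 replicate 3), 8.99 to 9.92 and 2.41 to 2.81. In the intervals, regions more often open after birth numbered 1, and 0 with 0.5 of the region covered, with adjustment over all regions and with the replicate block. In the latter 2 settings no region of the genome passed. Leaving out lists gave 1 to 3 there: 3 without upper-layer P1 replicate 3 and 2 without P5 replicate 2, the gains being at Sox10. Calls in this direction rose over the genome too. They were 2737 of 113942 regions with all lists, 4491 of 85557 without P1 replicate 3 and 5322 of 85575 without P5 replicate 2. Within the intervals, counts of the other direction and, except without both E17.5 lists, of both population directions were 0 in the alternatives run.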
